A study of Betula luminifera with 4 samples.

Results

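miR393 and miR390 were followed across the 4 small RNA libraries of the birch Betula luminifera. The members are the table entries named miR393 or miR390, with every arm and length form among the rows analysed here, and each distinct mature sequence was counted once. This gave 5 of the 215 distinct sequences, 3 of miR393 and 2 of miR390, from 6 of the 221 rows, since miR393b and miR393c have the same sequence and the same values. The plants were all of 1 clone, G49#, from 2 months of tissue culture. They were grown in sand and rinsed of stored phosphate with deionized water for 2 weeks before treatment. Control plants (CK) then received medium with 1.25 mM KH2PO4, and plants under phosphate deficiency (LP) received medium without KH2PO4, with potassium made up by K2SO4. Medium was given at 20 mL per day in both treatments. There is 1 library for each tissue and treatment, and a shoot library pools equal amounts of RNA from stems and leaves. No difference below is therefore checked against replicates or given a p-value, and every 95% interval covers counting error of the reads only.

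miR393 guides the cleavage of mRNAs of the TIR1/AFB auxin receptors, F-box proteins that bind auxin and release auxin response factors from their repressors. In Arabidopsis a 22-nt form of miR393 can also start the production of secondary small RNAs from these receptor mRNAs. miR390 acts through the Argonaute AGO7 on the noncoding TAS3 RNA, whose trans-acting siRNAs (tasiRNAs) silence auxin response factors. Both pathways are known for their part in root branching, in Arabidopsis and other plants.

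The mature sequences are shown because the main contrasts within both families are between forms of these few sequences. They are written 5′ to 3′ with T, as in the deposited table, and bases 2 to 8, the seed, are in capitals.
miR393a: tCCAAAGGgatcgcattgatt
miR393b: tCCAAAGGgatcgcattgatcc
miR393d-3p: aTCATGCTatccctttggatt
miR390a: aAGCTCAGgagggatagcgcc
miR390a-3p: cGCTATCTatcctgagtttc
miR393a and miR393b share a seed that no further sequence of the table has. The 21-nt miR393a and the 22-nt miR393b have the same base at 20 of 21 positions counted from the 5′ end, the exception being T21C (miR393a first), and miR393b goes on for 1 more base. The table compares both with the same 21-nt reference sequence of poplar and soybean miR393. Over its 21 bases miR393b has no difference from that reference, whereas miR393a has C21T (reference first). miR393d-3p, the opposite arm, is identical to poplar miR393a-3p. miR390a is identical to poplar miR390a, and the table lists 71 precursors of this family from 31 species beside it, against 63 from 24 species for miR393b. The row of miR393a lists 70 from 26 species, and that of miR393c, with the sequence of miR393b, lists 9 from 5. miR390a begins with A, the 5′ base that AGO7 prefers in Arabidopsis, while miR393a and miR393b begin with T, read as U in RNA.

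The 2 miR390 sequences lie on opposite arms of 1 precursor of 108 nt on the plus strand of transcript TRINITY_DN22263_c0_g1 of the authors' assembly, positions 59 to 166, for which the table gives a folding energy (dG) of -55.4. It is shown with both arms in capitals, as a hairpin that yields a guide and its partner strand.
miR390a precursor: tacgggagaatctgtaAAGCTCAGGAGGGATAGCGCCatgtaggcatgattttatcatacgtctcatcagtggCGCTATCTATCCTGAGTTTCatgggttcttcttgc
miR390a takes positions 17 to 37 of it and miR390a-3p positions 74 to 93. Laid against each other without gaps, the arms face over 19 bases, with 16 Watson-Crick pairs, 2 G-U pairs and 1 mismatch, and with 3′ overhangs of 2 bases on miR390a and 1 base on the 20-nt miR390a-3p. miR393b and miR393d-3p, which the table places on no transcript, also face over 19 bases, with 15 Watson-Crick pairs, 1 G-U pair and 3 mismatches. miR393a faces miR393d-3p with the same numbers, so these counts do not tell miR393a and miR393b apart. The 3′ overhangs are 3 bases on miR393b and 2 on miR393d-3p, against 2 and 2 with miR393a.

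miR393a differs from the other members in what the table lists as its origin. The entry is on the minus strand of transcript TRINITY_DN28956_c4_g1, positions 1998 to 2023, a stretch of only 26 nt with a dG of -2.7, listed as a 3′ arm. Of the 107 precursor positions in the table, whose median length is 125 nt and median dG is -47.9, this is the only 1 that is both this short and this weakly folded. The stretch is shown on both strands, with 21 bases in capitals. On the minus strand these line up with miR393a in the same sense, and on the plus strand they face it.
minus strand, as listed: gacaTCCAAAGGGATCGCATTGTTTc
plus strand: gAAACAATGCGATCCCTTTGGAtgtc
The minus strand is not identical to miR393a, having A19T (miR393a first), so the listed stretch does not hold the exact sequence counted. The plus strand, in the sense of a transcript read from it, pairs with miR393b at 20 of 22 bases and with miR393a at 20 of 21. The table gives no function for this transcript, and whether it encodes an auxin receptor was not tested.

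The raw reads of the 215 sequences sum to 1015833 in shoot CK, 723599 in shoot LP, 308667 in root CK and 101816 in root LP. Precision depends on the reads of each member. Both miR390 strands and miR393b had the fewest reads in root LP, miR393a in shoot LP and miR393d-3p in root CK. Levels are the authors' normalized values, which are the raw reads times 1 constant per library. A sequence or family was called where it differed by 2-fold or more and at least 1 of both libraries held a normalized value of 10 or above. Other scalings shift all ratios of a comparison together. Scaling to the table total shifted the log2 ratios by 0.18 for LP against CK in roots, -0.11 in shoots, 0.73 between roots and shoots under CK and 1.02 under LP. TMM shifted them by -0.05, 0.39, 0.12 and -0.33, and the median of ratios by -0.03, 0.16, 0.25 and 0.05, in the same order. Ratios between members of the same library do not depend on the scaling.

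miR390a, the guide strand of its family, was the most abundant member in every library. It stood at 3743 in shoot CK, 1781 in root CK, 1642 in shoot LP and 1062 in root LP, from 7244, 1743, 2105 and 389 reads. Shoot CK was the highest and root LP the lowest, and the counting intervals of root CK (1698 to 1867) and shoot LP (1573 to 1714) overlapped. The partner strand miR390a-3p stood at 381 in shoot CK, 206 in shoot LP, 133 in root CK and 68.2 in root LP, from 737, 264, 130 and 25 reads. Its counting intervals did not overlap, and both shoot libraries were above both root libraries. The family sum took 0.786% of the table's reads in shoot CK, 0.607% in root CK, 0.407% in root LP and 0.327% in shoot LP, and ranked between 10 and 16 of 56 families. Among the 64 sequences that begin with A, miR390a alone held 42.4% of the reads in shoot CK, 36.3% in shoot LP, 28.3% in root CK and 23.4% in root LP. It was the most abundant of them in both shoot libraries, while miR159a-5p was in both root libraries.

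miR393 was the less abundant family, between 0.0264% and 0.114% of the reads, and ranked between 24 and 29 of 56. The 22-nt miR393b stood at 187 in root CK, followed by 132 in root LP, 127 in shoot LP and 123 in shoot CK, from 183, 48.5, 163.4 and 238.1 reads. Root CK was above both shoot libraries beyond the counting intervals, and the other 3 libraries overlapped with one another. The 21-nt miR393a stood at 180 in root LP, 105 in root CK, 32.6 in shoot CK and 17.9 in shoot LP, from 66, 102.5, 63 and 23 reads. Both root libraries were above both shoot libraries, and the intervals of the shoot libraries overlapped (25.0 to 41.6 and 11.4 to 26.9). The opposite arm miR393d-3p was near the limit of detection, with 18.2 reads in shoot CK, 4.67 in shoot LP, 1.67 in root LP and 1 in root CK. With a highest value of 9.39 it stayed under 10 in every library and enters no count of calls. Fractional reads, as in all 3 miR393 sequences, are what reads split between several places would give, so the division of reads between near-identical forms is less certain for miR393 than for miR390, whose values are whole.

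**Figure D1:**
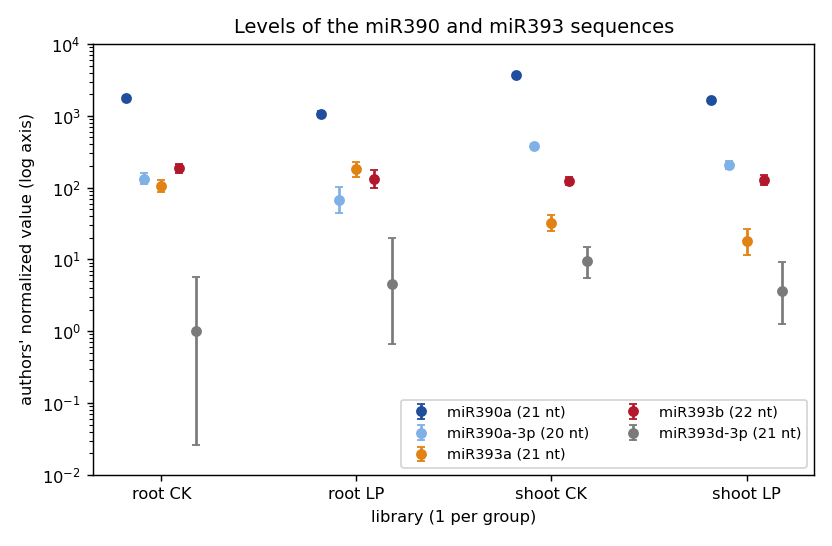
Authors' normalized value (log axis) of each of the 5 sequences in the 4 libraries, with bars for the 95% counting interval (exact Poisson). miR390a lies highest in every library, miR393b stays between 123 and 187, and miR393a spans 17.9 to 180.

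In roots, LP against CK gave lower values of both miR390 strands and opposite directions for miR393a and miR393b, all within 2-fold. miR390a was 1.68-fold (1.502 to 1.88) lower and miR390a-3p 1.95-fold (1.26 to 3.12) lower, and TMM scaling takes miR390a-3p past 2-fold. miR393b was 1.41-fold (1.02 to 1.96) lower while miR393a was 1.72-fold (1.24 to 2.35) higher. The miR393 sum therefore hides a contrast, standing at 317 under LP and 293 under CK with a ratio of 1.08-fold (0.863 to 1.34). Scaling to the table total gave log2 ratios of -0.31 for miR393b, with an interval that includes equality, and 0.96 for miR393a. Of the 4 members that reached a value of 10, 0 reached 2-fold, beside 24.5% of 143 sequences called higher and 18.2% called lower. The median log2 ratio over these 143 was 0.07, against -0.75 for miR390a, -0.95 for miR390a-3p, -0.50 for miR393b and 0.78 for miR393a.

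In shoots, LP against CK gave lower values of both miR390 strands and of miR393a, while miR393b was level under the authors' constants. miR390a, the only member called for LP in either tissue, was 2.28-fold (2.17 to 2.39) lower, its interval lying past 2-fold. The partner strand miR390a-3p was 1.85-fold (1.60 to 2.14) lower. miR393a was 1.81-fold (1.11 to 3.06) lower, and miR393b differed by 1.04-fold (0.842 to 1.27), an interval that includes equality. TMM gave log2 ratios of 0.44 for miR393b, with an interval above equality, and -0.45 for miR393a, with an interval that includes it. The median of ratios gave 0.21 and -0.67, both with intervals that include equality. The miR393d-3p value was 2.58-fold (0.853 to 8.21) lower, which was not detectable as a difference at this depth. The median log2 ratio over 140 sequences was -0.23, against -1.19 for miR390a, -0.88 for miR390a-3p, -0.82 for miR393a and 0.05 for miR393b. Of the 4 members, 1 was called lower and 0 higher, beside 27.9% and 17.9% of these 140 sequences. TMM scaling turned that background from 25 higher and 39 lower to 48 higher and 23 lower, and under TMM the miR390a log2 ratio of -1.19 became -0.79, so the call of miR390a in shoots holds under the authors' constants, the table total and the median of ratios (-1.02), and ends under TMM.

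Between the tissues under CK, both miR390 strands were lower in roots than in shoots and miR393a was higher. miR390a was 2.10-fold (1.99 to 2.22) lower and miR390a-3p 2.87-fold (2.38 to 3.48) lower. miR393a was 3.22-fold (2.34 to 4.50) higher in roots, and miR393b 1.52-fold (1.25 to 1.85) higher. miR393d-3p had 1 read in roots and 18.2 in shoots, a ratio of 9.19-fold (1.44 to 379) lower. Of the 4 members, 1 was called higher and 2 lower, beside 26.1% and 38% of 142 sequences. The median log2 ratio over these 142 was -0.44, against -1.07 for miR390a, -1.51 for miR390a-3p, 1.66 for miR393a and 0.60 for miR393b.

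Under LP, miR393a was 10.04-fold (6.16 to 16.9) higher in roots than in shoots, number 18 from the top among 158 sequences. Over every scaling tried its log2 ratio ran from 2.94 under TMM to 4.25 under the table total. miR393b, at 132 and 127, had a ratio of 1.04-fold (0.748 to 1.46). miR390a was 1.55-fold (1.39 to 1.73) lower in roots, a direction that scaling to the table total turned from a log2 ratio of -0.63 to 0.39, and miR390a-3p was 3.02-fold (2.00 to 4.75) lower. The median log2 ratio over the 158 sequences was -0.22, against 3.26 for miR393a, 0.05 for miR393b, -0.63 for miR390a and -1.58 for miR390a-3p. Of the 4 members, 1 was called higher and 1 lower, beside 34.8% and 38% of the 158 sequences. Scaling to the table total turned this background from 55 higher and 60 lower to 84 and 37, and under CK from 37 and 54 to 56 and 37. It ended the CK calls of both miR390 strands and the LP call of miR390a-3p, and took miR393b past 2-fold under CK (1.33) and LP (1.07). The CK call of miR390a also ended under TMM (-0.96) and the median of ratios (-0.82), so it holds under the authors' constants alone, while the miR393a calls between tissues held under every scaling.

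**Figure D2:**
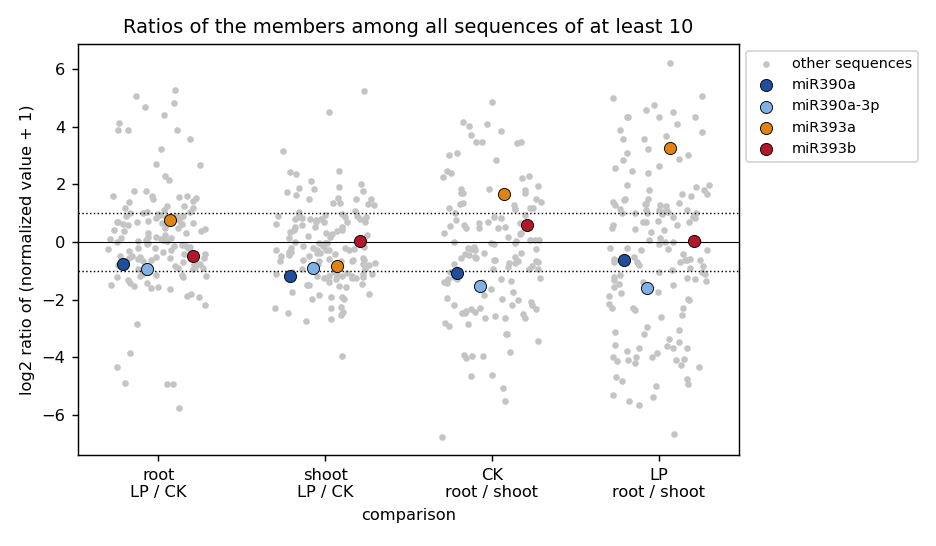
Log2 ratio of the normalized value plus 1 in the 4 comparisons, for the 4 members that reached a value of 10 in either library (coloured) and all other such sequences (grey), with dotted lines at 2-fold. The coloured points lie within 2-fold in roots under LP against CK, and miR393a stands at 3.26 in roots against shoots under LP.

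The sequences miR393a and miR393b stood in different proportions in the 4 libraries. They differ in base 21 as well as in length, so their ratio is not that of 2 length forms of 1 sequence. The 22-nt miR393b made up 64.1% (58.1 to 69.6, exact binomial) of the miR393a and miR393b reads in roots under CK and 42.4% (33.4 to 52.2) under LP. In shoots it made up 79.1% (74.0 to 83.5) under CK and 87.7% (82.0 to 92.0) under LP. It was thus the more abundant sequence in 3 libraries and the less abundant in root LP by its point value, where the interval includes equal parts. As odds of miR393b over miR393a, LP was 2.39-fold (1.503 to 3.82) lower than CK in roots and 1.87-fold (1.09 to 3.30) higher in shoots. Under LP these odds were 9.46-fold (5.20 to 17.7) lower in roots than in shoots. The intervals for the shoots are wide because miR393a had 63 and 23 reads there.

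The pooled reads of the other sequences stood in the same order. Among their reads of 21 and 22 nt, 22 nt made up 15.9% under CK and 8.64% under LP in roots, and 29.7% under CK and 42.5% under LP in shoots, mostly miR482. Without miR482 the shares were 1.37% and 1.16% in roots and 2.04% and 6.28% in shoots. The median log2 ratio of LP against CK in roots was -0.02 for the other 81 sequences of 21 nt and -0.64 for the other 16 of 22 nt, and in shoots -0.29 for 76 and 0.45 for 18. A shift by length over the whole table thus ran beside the change between miR393b and miR393a, and its part in the result was not tested.

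**Figure D3:**
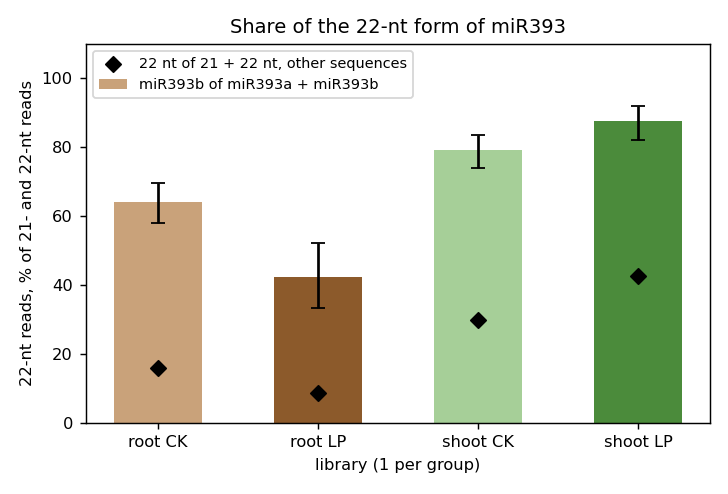
Bars show the share of the 22-nt miR393b in the reads of miR393a and miR393b in each library, with the 95% exact binomial interval, and diamonds the share of 22 nt in the 21- and 22-nt reads of all sequences outside both families. Both are lowest in root LP, at 42.4% and 8.64%, and highest in shoot LP, at 87.7% and 42.5%.

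The guide and partner strands of miR390 stood within a narrow range of proportions. In roots miR390a had 13.4 reads (11.2 to 16.1) per read of miR390a-3p under CK and 15.6 (10.4 to 24.3) under LP. In shoots it had 9.83 (9.11 to 10.6) under CK and 7.97 (7.01 to 9.10) under LP. The ratio was 1.36-fold (1.12 to 1.67) higher in roots than in shoots under CK and 1.95-fold (1.27 to 3.11) higher under LP. In shoots it was 1.23-fold (1.06 to 1.43) lower under LP than under CK, and in roots the change of 1.16-fold (0.740 to 1.89) includes equality. Over the 4 libraries the log2 arm ratio of miR390 ran from 2.995 to 3.96, a span of 0.96. The table holds 14 other distinct pairs of arms with at least 10 reads of each arm in every library, 2 of which share the sequence miR156a/b/c, and their spans ran from 1.204 for miR168a to 5.47 for miR167b, with a median of 2.64. The root LP end of the miR390 span rests on 25 reads of miR390a-3p. Its place below miR168a is therefore not beyond counting error. In 11 of these 14 pairs the major arm was relatively less abundant in roots than in shoots under CK, the reverse of miR390. Under LP 9 pairs went that way and 5 went the way of miR390. For miR393 the ratio of miR393b to miR393d-3p was 13.1 (8.19 to 22.7) in shoot CK and 35.0 (13.7 to 101.7) in shoot LP, and roots had too few reads of miR393d-3p for a usable ratio.

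**Figure D4:**
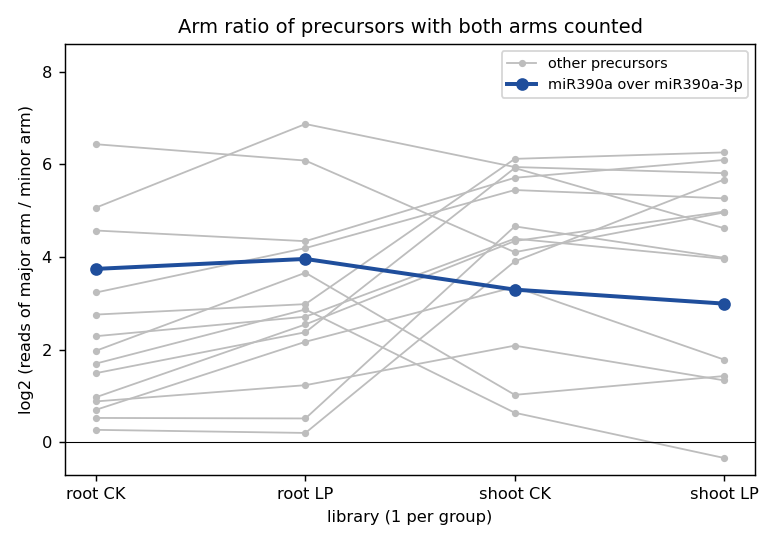
Log2 of the reads of the more abundant arm over the less abundant arm in the 4 libraries, for miR390 (blue) and the 14 other pairs with at least 10 reads of each arm in every library (grey). The miR390 line runs between 2.995 and 3.96, by point values the narrowest span of the 15 pairs.

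Beside the members stand the other families of auxin signalling, of which miR160 and miR167, both directed at auxin response factors, were measured. In roots under LP the log2 ratios of the family sums were 0.50 for miR160, 0.40 for miR167, 0.11 for miR393 and -0.76 for miR390. In that comparison 0 of the 4 reached 2-fold, beside 22.9% of 48 families higher and 8.33% lower, and the median of the 4 was 0.26 against 0.14 over all families. In shoots under LP miR167 was called higher at 2.42-fold (2.38 to 2.47) and miR390 lower at 2.23-fold (2.13 to 2.34), beside 21.4% and 35.7% of 42 families, with miR160 at a log2 ratio of -0.92. The median of the 4 was -0.53 against -0.63 over all families, and the miR390 call ended under TMM and the median of ratios. With the table total miR160 was also called lower (-1.02). Between the tissues under CK, miR167 and miR390 were called lower in roots, by 2.94-fold (2.82 to 3.06) and 2.15-fold (2.05 to 2.27), beside 35.7% of families lower and 19% higher. The miR390 call ended under all 3 other scalings, at -0.37 with the table total, -0.99 with TMM and -0.86 with the median of ratios, and the miR167 call ended with the table total (-0.82). The miR393 sum was called higher in roots under CK with the table total (1.55) and the median of ratios (1.07). Under LP miR160 and miR393 were called higher in roots, by 2.41-fold (2.26 to 2.58) and 2.13-fold (1.67 to 2.69), and miR167 lower by 5.38-fold (5.10 to 5.68), beside 39.6% and 27.1% of families. The miR393 call rests on miR393a, since miR393b alone had a log2 ratio of 0.05. It ended under TMM, as did that of miR160 (0.94), and with all rows as deposited, where the sequence of miR393b counts double. TMM also called miR390 lower in roots under LP (-1.04). The sequences of miR167 were again spread in roots against shoots under LP. Their log2 ratios were -4.33 for miR167b, -2.94 for miR167d-3p, -1.55 for miR167c, -0.23 for miR167a, 1.13 for miR167a-3p and 1.82 for miR167b-3p.

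Of 9 families known to start secondary siRNAs in plants, 4 were measured here, miR390, miR393, miR482, which targets immune receptor genes, and miR828, which targets MYB genes. In roots under LP 1 was called higher (miR828, from 6 and 7 reads) and 1 lower (miR482), beside 22.9% and 8.33% of families, with a median log2 ratio of -0.32 against 0.14 over all families. The miR828 ratio was 2.29-fold (0.636 to 7.96), an interval that includes equality. The miR482 call ended with the table total (-0.98). In shoots under LP 2 were lower (miR390 and miR828) and 0 higher, beside 35.7% and 21.4% of families, with a median of -0.65 against -0.63. Under TMM 0 of the 4 were lower, and under the median of ratios 1, miR828. Between the tissues under CK 3 of the 4, all but miR393, were called lower in roots, beside 35.7% of families, with a median of -1.38 against -0.52. Of these calls, miR828 alone held under every scaling, since the miR390 call ended under the 3 other scalings and the miR482 call with the table total (-0.93). As given above, miR393 was called higher under CK with the table total and the median of ratios. Under LP miR393 was called higher and miR482 lower in roots, beside 39.6% and 27.1% of families, with a median of -0.45 against -0.10. As given above, under TMM the miR393 call ended and miR390 was called lower.

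By shape over the 4 libraries, judged by the largest difference between centred log2 profiles among 89 sequences with a value of at least 10 in every library, the most like miR393b were blu-miR6-3p at 0.22, miR168a-3p at 0.32 and blu-miR7-5p at 0.32. The names starting with blu are predicted birch miRNAs, and all 3 are the less abundant arm of their precursor. They share with miR393b a highest value in root CK, at 171 for blu-miR6-3p, 648 for miR168a-3p and 4162 for blu-miR7-5p. The most like miR390a were miR482g at 0.31, blu-miR14-5p at 0.39 and miR164a at 0.41. All were highest in shoot CK and lowest in root LP, with miR164a, which targets NAC transcription factor genes, at 5035 in shoot CK and 1219 in root LP. With 4 libraries in all, likeness of shape is a description.

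**Figure D5:**
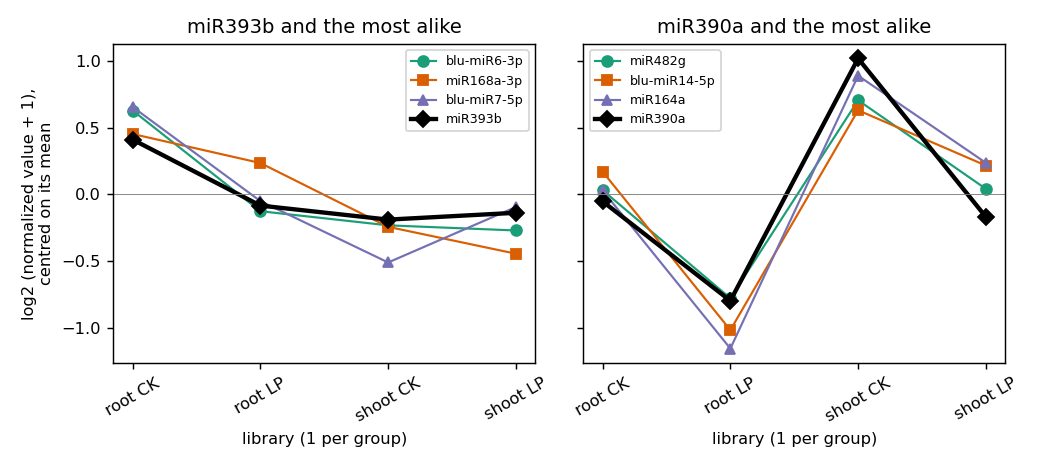
Log2 of the normalized value plus 1, centred on its mean over the 4 libraries, for miR393b (left) and miR390a (right) in black and the 3 sequences of most similar shape in colour. miR393b is highest in root CK, and miR390a is highest in shoot CK and lowest in root LP.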

How the data were processed

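Per the labels' protocols, RNA of plants from a 54-plant block design with 3 replicates gave 1 library per tissue and treatment, made with a TruSeq small RNA kit and sequenced as single 36-nt reads. No label links a block to a library, so a group has n = 1. The raw columns are estimated counts as deposited by the authors, some of them fractional. The normalized columns hold a signal, the raw values times 1 constant per library, as deposited by the authors and as the ratio of both columns shows. The folding energy (dG) and folding energy index are scores given by the authors. Hairpin length is another property of the deposited table. The sources used here name no aligner, counting program, filter or miRBase release. Rows with the same sequence were collapsed, and 2 blank lines were not analysed here, so family sums cover the listed rows and may be incomplete. No column was left without a sample.

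Folds are plain ratios of normalized values, with exact conditional (Clopper-Pearson) 95% intervals from reads rounded to whole numbers. Log2 ratios were taken after adding 1. Intervals of odds are exact conditional ones and those of levels are exact Poisson. PCR copies of 1 molecule are counted as separate reads. The interval code was tested on simulated data. TMM factors came from edgeR 4.0.16 and size factors from DESeq2 1.42.0, with Python 3.11.15 and scipy 1.17.1. Named are all members, the measured families of 2 lists and the 3 sequences most alike in shape per family. Members and lists were chosen with earlier results of these data known. The lists were auxin signalling (miR160, miR167, miR390, miR393, miR847) and siRNA triggers (miR173, miR390, miR393, miR472, miR482, miR828, miR1507, miR2109, miR2118). The table totals are not library depths.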

Additional observations from a re-analysis of the deposited data

Results flagged for a closer look

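miR393a moved in opposite directions in the 2 tissues. Its log2 ratio of LP over CK was 0.78 in roots and -0.82 in shoots. Each counting interval excluded equality by the authors' constants. The shoot interval took in equality once the libraries were rescaled with TMM (-0.45) or with median-of-ratios factors (-0.67). By the authors' constants the fold in roots was 3.10 times (1.70 to 5.76) that in shoots. The odds of miR393b over miR393a likewise went opposite ways, with an odds ratio of LP against CK of 0.419 in roots and 1.87 in shoots. Whether the conditions differ was not tested, since each direction rests on 1 library per treatment.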

How the results depend on the processing

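Values are log2 ratios unless called counts. Scaled to the table total, LP against CK gave -0.56 for miR390a and -0.58 for the miR390 sum in roots, and -1.29 and -1.26 in shoots. Under that scaling root against shoot gave, under CK, -0.34 for miR390a, -0.78 for miR390a-3p, -0.37 for the miR390 sum, 2.37 for miR393a, 1.33 for miR393b and 1.55 for the miR393 sum. Under LP the same values were 0.39, -0.57, 0.31, 4.25, 1.07 and 2.10, so the miR390a and miR390 directions turned. The counts of called sequences became 56 higher under CK and 84 higher and 37 lower under LP. TMM gave -0.999 for miR390a-3p in roots (LP against CK) and, in shoots, -0.79 for miR390a, -0.49 for miR390a-3p, -0.76 for the miR390 sum, 0.44 for miR393b and 0.25 for the miR393 sum, with 48 sequences higher and 23 lower. For root against shoot it gave -0.96 for miR390a and -0.99 for the miR390 sum under CK, and -0.96, -1.04 and, for the miR393 sum, 0.76 under LP. The median of ratios gave -1.02 for miR390a and -0.99 for the miR390 sum in shoots (LP against CK), and -0.82, -0.86 and, for the miR393 sum, 1.07 for root against shoot under CK. With all rows as deposited the miR393 sum stood at 0.70 for root against shoot under LP, and with miR393b alone at 0.054, while miR393b alone gave -0.50 in roots (LP against CK).

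For the counts of called sequences, a pseudocount of 10 gave 20 higher in roots and 15 in shoots (LP against CK). Without a filter 61 were lower in roots, 42 higher and 62 lower in shoots, and 82 and 92 lower for root against shoot under CK and LP. A filter at 50 gave 10 higher and 14 lower in roots, 12 higher in shoots, 24 higher for root against shoot under CK, and 29 higher and 34 lower under LP. A threshold of 1.5-fold gave 54 higher and 44 lower in roots and 43 higher in shoots. The cause of these changes was not tested beyond what each setting does by construction. No sequence of miR393 is free of fractional reads, so the setting that keeps whole values gave none for miR393. Neither pseudocount (0.1 or 10) moved a member ratio outside its counting interval. The read numbers limit miR393d-3p throughout and miR393a in shoots. No paired analysis was possible because each group has 1 library.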
